A study of Mus musculus with 2 samples.

Results

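The mature arms of the miR-144 and miR-451 cluster and of the miR-486 hairpins were examined in small RNA of serum extracellular vesicles (EVs), small membrane-bound particles shed by cells into blood. The members were taken by name and are mmu-miR-144-3p, mmu-miR-144-5p, mmu-miR-451a, mmu-miR-451b, mmu-miR-486a-5p, mmu-miR-486a-3p, mmu-miR-486b-5p and mmu-miR-486b-3p, 8 of the 1847 mouse miRNAs measured. The EVs came from male iFIRKO mice (Adipoq-CreERT2; Insr flox/flox), in which the adiponectin promoter drives a tamoxifen-inducible Cre recombinase in adipocytes and the insulin receptor gene is floxed, and from male control mice. The labels call the control genotype WT, whereas the study's methods give control mice as flox/flox at the receptor gene, so it is not settled here whether the controls carried the floxed alleles. Mice of both groups were treated at the age of 7 weeks with tamoxifen at 100 mg/kg on each of 5 days, and serum was taken 3 days after the last dose. Each group is 1 library made from the pooled serum of several mice, so no spread between animals can be given and no test of the genotype was possible. No miRNA reports the deletion of the receptor gene, so the files alone do not settle which library is which. The libraries are therefore called control and iFIRKO only as labelled, the labels are taken as uncertain, and if they were exchanged every ratio and direction below would be inverted.

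miR-144 and miR-451 are transcribed together from a locus that the transcription factor GATA1 switches on in erythroid precursors, and they are among the best known miRNAs of red blood cells. miR-144 is cut from its hairpin by Drosha and Dicer like most miRNAs, which leaves a 5p and a 3p arm, whereas the short hairpin of miR-451 skips Dicer and is cut by Argonaute 2, which leaves a single mature strand. miR-486 lies in an intron of Ank1, the gene of the red cell membrane protein ankyrin-1, and is made in erythroid cells and in skeletal and heart muscle. Its mouse locus is read on both strands into overlapping hairpins, named miR-486a and miR-486b, whose mature arms are nearly identical. In serum these miRNAs are widely used as signs of red cell material, and in bulk EVs fewer vesicles of a cell type and less of a miRNA per vesicle cannot be told apart.

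The mature sequences of the miR-144 and miR-451 cluster are shown because the arms differ in how they lie in their hairpins. They are the RefSeq sequences of build GRCm38.p6, written 5′ to 3′ with the seed, bases 2 to 8, in capitals, and 4 of the 8 members were matched.
mmu-miR-144-5p: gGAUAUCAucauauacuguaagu
mmu-miR-144-3p: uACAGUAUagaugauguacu
mmu-miR-451a: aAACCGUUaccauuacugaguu
mmu-miR-451b: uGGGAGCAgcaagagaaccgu
The hairpins they come from are given next, with the mature strands in capitals.
Mir144: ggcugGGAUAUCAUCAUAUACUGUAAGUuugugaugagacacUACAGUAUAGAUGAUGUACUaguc
Mir451a: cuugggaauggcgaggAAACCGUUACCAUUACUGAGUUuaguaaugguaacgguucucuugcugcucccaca

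The Mir144 hairpin lies at chr11:78073005-78073070 on the plus strand and Mir451a at chr11:78073170-78073241 on the same strand, 99 bases downstream. Both lie outside other annotated genes, between Flot2 and Eral1. In the predicted fold of Mir144 (minimum free energy of -28.6 kcal/mol), 20 of the 23 bases of miR-144-5p and 19 of the 20 bases of miR-144-3p were paired. The predicted fold of Mir451a was more stable, at -43.3 kcal/mol, and miR-451a covered hairpin bases 17 to 38, so that it ran through the loop at bases 35 to 38. Mir451b covers the same interval on the minus strand, and its mature strand is separated from that of miR-451a by 11 bases on the genome. No 2 of the 4 matched members shared a seed. Mir486 lies at chr8:23142555-23142682 on the plus strand and Mir3107, the gene of miR-486b, at chr8:23142573-23142662 on the minus strand, both within an intron of Ank1.

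The deposited signal is a whole count divided by 1 constant per library, which gave a depth of 3817902 counts for the control library and 2233498 counts for the iFIRKO library. Levels are given below as counts and as counts per 1000000 of that depth (CPM). All 8 members were above the floor of the tables in both libraries, which stood for fewer than 10 counts (2.62 CPM in the control library and 4.48 CPM in the iFIRKO library). Ratios are iFIRKO over control with an exact 95% interval that covers counting error only, and a miRNA is called lower or higher past the study's 1.5-fold threshold. The ratio depended on abundance over all miRNAs, with a median log2 ratio of 1.01 for the 1350 miRNAs whose counts averaged 10 to 100 over the libraries and -0.07 for the 118 that averaged 1000 or more.

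The 8 members together held 4.75% of the control library and 3.23% of the iFIRKO library, a ratio of 0.679 (95% interval 0.673 to 0.685). Of the 8 members, 7 had a lower level in the iFIRKO library and miR-451b had a higher one. Over all 1847 miRNAs, 220 were lower and 1627 higher. Among the 420 averaging 100 counts or more, 136 were lower, against all 7 members of that class. Among the 118 averaging 1000 or more, a class that holds 6 of the members, 70 were lower. At 1.5-fold, miR-451a, miR-144-3p, miR-486a-3p and miR-486b-3p were lower, miR-451b was higher, and the 5p arms of miR-144, miR-486a and miR-486b were past the threshold in neither direction.

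miR-451a, a strand known to act on Ywhaz in red cell maturation, had the lowest ratio of the 8. It was counted 21137 times (5536 CPM) in the control library and 5055 times (2263 CPM) in the iFIRKO library. The ratio was 0.409 (95% interval 0.396 to 0.422), and its rank among all miRNAs went from 36 to 49. If the labels were exchanged, the same counts would make miR-451a 2.45 times as high (95% interval 2.37 to 2.52) and the most raised of the 7 abundant arms. miR-451b, from the opposite strand, was counted 35 times (9.17 CPM) and 47 times (21.0 CPM). Its ratio of 2.30 (95% interval 1.45 to 3.66) lay near the median ratio of 2.01 of the 1350 miRNAs averaging 10 to 100 counts, and 66.3% of all 1847 miRNAs were higher past 1.5-fold. There were 604 miR-451a counts per miR-451b count in the control library and 108 in the iFIRKO library, a change of 0.178 (95% interval 0.115 to 0.276).

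miR-144-3p, which carries the seed usually ascribed to miR-144 targeting, was counted 1566 times (410 CPM) in the control library and 464 times (208 CPM) in the iFIRKO library, a ratio of 0.506 (95% interval 0.456 to 0.562). miR-144-5p, the other arm of the same hairpin, was counted 1269 times (332 CPM) and 564 times (253 CPM), a ratio of 0.760 (95% interval 0.687 to 0.840). Both arms were lower, the 3p arm by more. Summed, the arms of Mir144 stood at 743 CPM in the control library and 460 CPM in the iFIRKO library, a ratio of 0.620 (95% interval 0.577 to 0.666).

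The miR-486 arms made up most of the member counts, 86.8% in the control library and 91.5% in the iFIRKO library. miR-486b-5p alone was counted 123880 times (32447 CPM) and 53082 times (23766 CPM), which placed it at rank 3 and rank 7 of all miRNAs. Its ratio of 0.732 (95% interval 0.725 to 0.740) was narrow in counting error and did not pass 1.5-fold. miR-486a-5p was counted 24087 times (6309 CPM) and 9865 times (4417 CPM), a ratio of 0.700 (95% interval 0.684 to 0.717). The miR-486 5p strand, which is known to repress Foxo1, was thus lower by a similar factor under both names.

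The 3p arms of miR-486 had lower ratios than the 5p arms. miR-486a-3p was counted 5852 times (1533 CPM) in the control library and 1880 times (842 CPM) in the iFIRKO library, a ratio of 0.549 (95% interval 0.521 to 0.579). miR-486b-3p was counted 3581 times (938 CPM) and 1097 times (491 CPM), a ratio of 0.524 (95% interval 0.489 to 0.560). Both were past the threshold on the lower side.

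**Figure D1:**
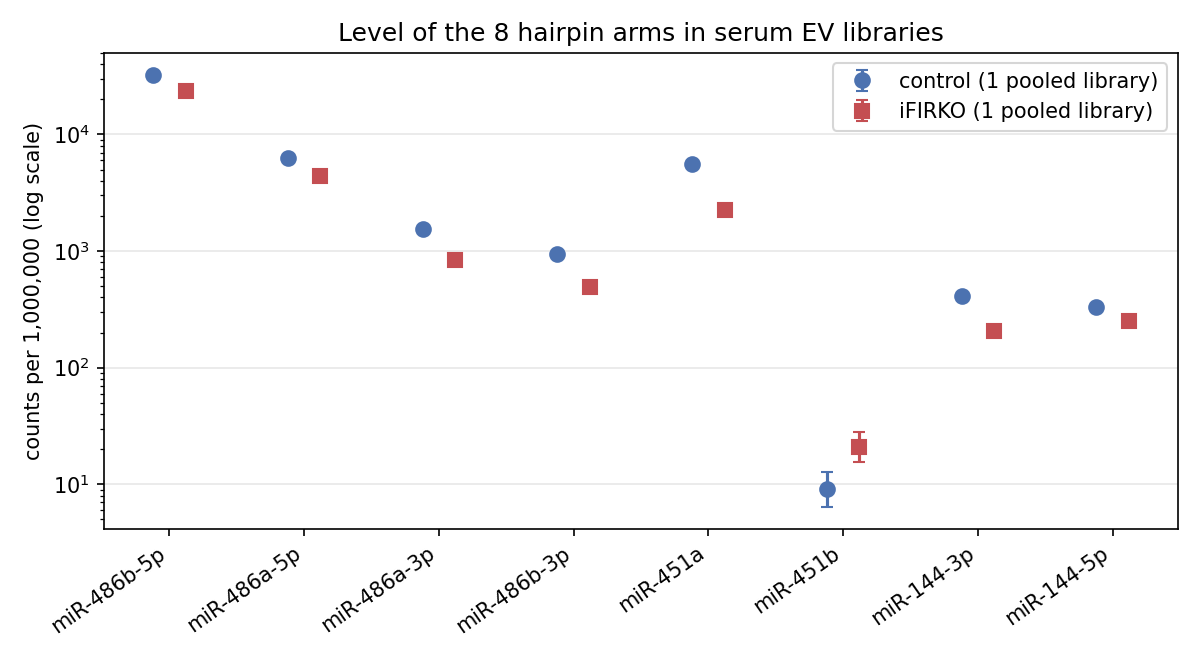
Level of each of the 8 arms, in counts per 1,000,000 on a log scale, in the control library (circles) and the iFIRKO library (squares), 1 pooled library each; bars are exact 95% counting intervals and are mostly smaller than the symbols. The squares lie below the circles for 7 arms, and miR-451b, the rarest at 9.17 and 21.0 CPM, is the exception.

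In the control library the order of levels was miR-486b-5p, miR-486a-5p, miR-451a, miR-486a-3p, miR-486b-3p, miR-144-3p, miR-144-5p and miR-451b. The iFIRKO library kept this order except that miR-144-5p stood above miR-144-3p. No neighbours in either order had overlapping counting intervals, while the spread over mice is not known.

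Of the 1847 miRNAs, 56 (3.03%) were lower past 1.5-fold, against 4 of the 8 members. Since low counts leaned to higher ratios, the members are better read against miRNAs of like abundance. Among the 420 miRNAs that averaged 100 counts or more, 18 (4.29%) were lower past 1.5-fold, and 4 of the 7 members in that class were. Among the 118 that averaged 1000 or more, 11 (9.32%) were lower past 1.5-fold, and 4 of the 6 members in that class were. The median log2 ratio was -0.69 over the 8 members and -0.86 over the 7 that averaged 100 counts or more. The same median was 0.27 over all 420 miRNAs of that abundance and 0.88 over all 1847.

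**Figure D2:**
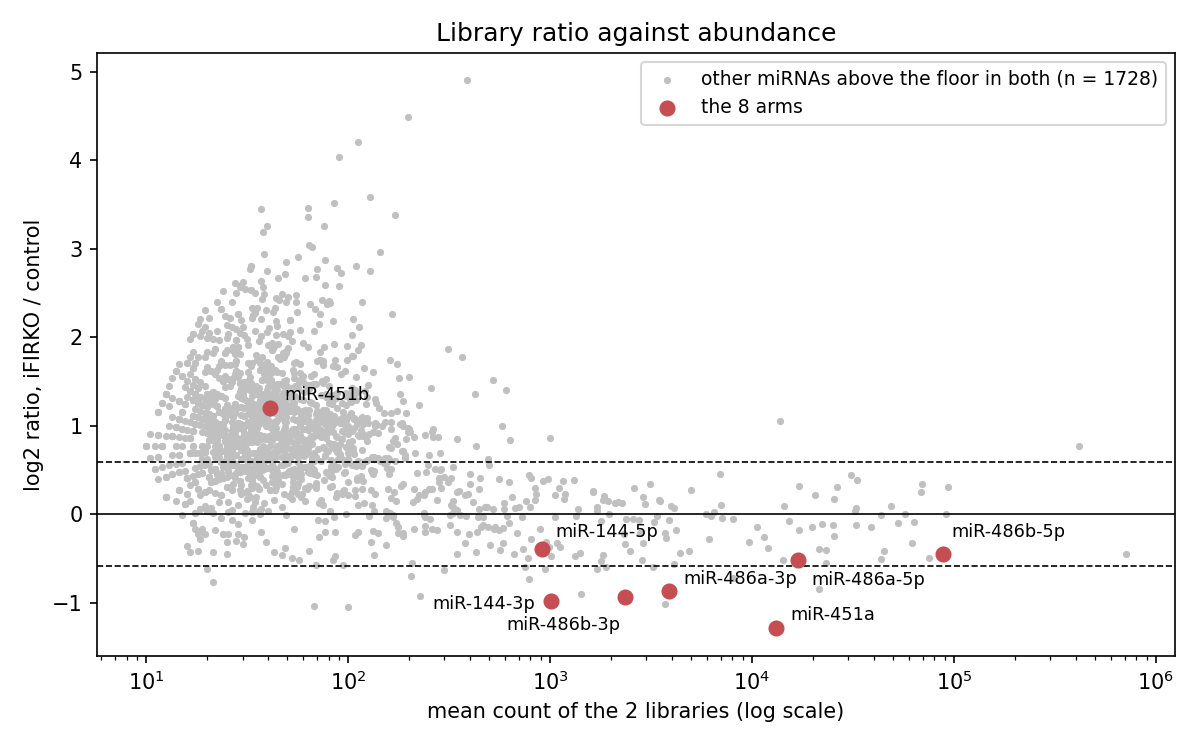
Log2 ratio of iFIRKO to control against the mean count of the 2 libraries (log scale) for every miRNA above the floor in each library, with the 8 arms in red; dashed lines mark 1.5-fold. The 7 abundant arms lie between -0.40 and -1.29. Of these, the 3 5p arms lie among other miRNAs of like abundance and the other 4 lie below the lower dashed line. miR-451b lies inside the cloud of low-count miRNAs at 1.20.

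The arms of a hairpin were next compared within each library, where the scaling of the libraries drops out. miR-144 had 0.810 counts of the 5p arm per count of the 3p arm in the control library (95% interval 0.752 to 0.873) and 1.22 in the iFIRKO library (95% interval 1.07 to 1.38). The 3p arm was therefore the more abundant arm in the control library and the 5p arm in the iFIRKO library. The 5p to 3p ratio was 1.5 times as high in the iFIRKO library (95% interval 1.30 to 1.73), which is at the threshold and not past it. For miR-486a the ratio was 4.12 and 5.25, a change of 1.27 (95% interval 1.20 to 1.35). For miR-486b it was 34.6 and 48.4, a change of 1.40 (95% interval 1.31 to 1.498). In all 3 hairpins the 3p arm thus had the lower ratio of the 2 arms, whether it was the near-equal arm, as in miR-144, or the minor one, as in miR-486.

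**Figure D3:**
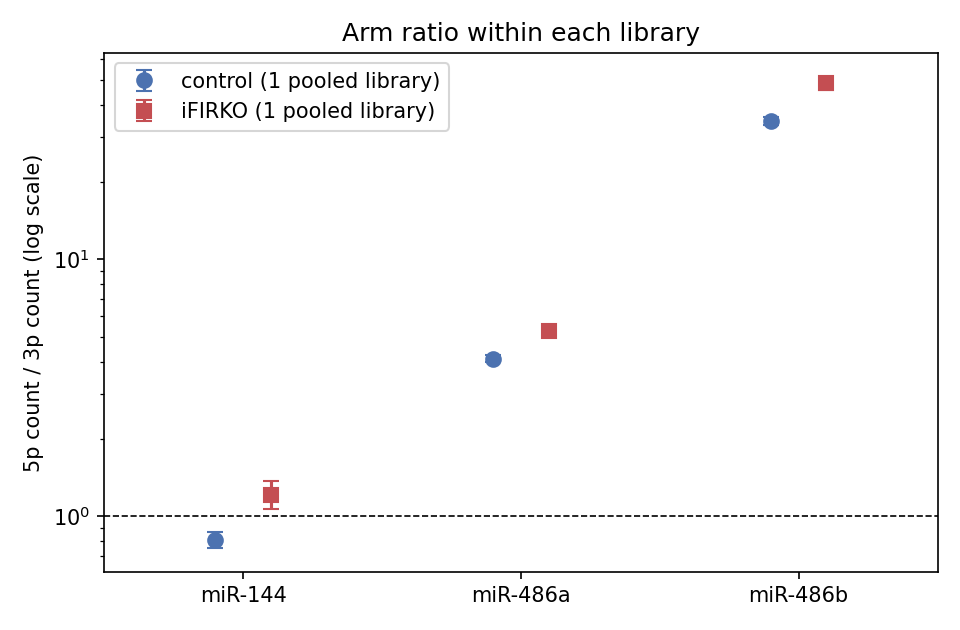
Counts of the 5p arm per count of the 3p arm (log scale) within the control library (circles) and the iFIRKO library (squares) for miR-144, miR-486a and miR-486b, with 95% counting intervals; the dashed line marks equal arms. The square lies above the circle in each hairpin, and miR-144 crosses the line from 0.810 to 1.22.

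Changes past 1.5-fold were common among hairpins at moderate counts, and none of the 10 hairpins with arms averaging 1000 counts or more passed it. Of the 72 hairpins whose arms both averaged 100 counts or more, 17 (23.6%) changed their 5p to 3p ratio by more than 1.5-fold in either direction, and none of the 3 hairpins above was among them. Among the other 69 hairpins the median change was 0.951, with a 10th percentile of 0.608 and a 90th percentile of 1.62. The 5p to 3p ratio was higher in the iFIRKO library in 27 of these 69 hairpins, and 9 had a change at least as high as that of miR-144. The more abundant arm switched in 4 of the 69 (5.80%). Both arms were lower in 16 of the 69 hairpins, 8 with the lower ratio in the 3p arm and 8 in the 5p arm. Both miR-486 hairpins had arms averaging 1000 counts or more. Among the 8 other hairpins of that class the change had a 10th percentile of 0.727 and a 90th percentile of 1.27. The highest was 1.36, for let-7b. The lowest were 0.694 for let-7d, whose 3p to 5p ratio was thus 1.44 times as high, and 0.741 for miR-140. Beside these, miR-486a stood at 1.27 and miR-486b at 1.40.

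**Figure D4:**
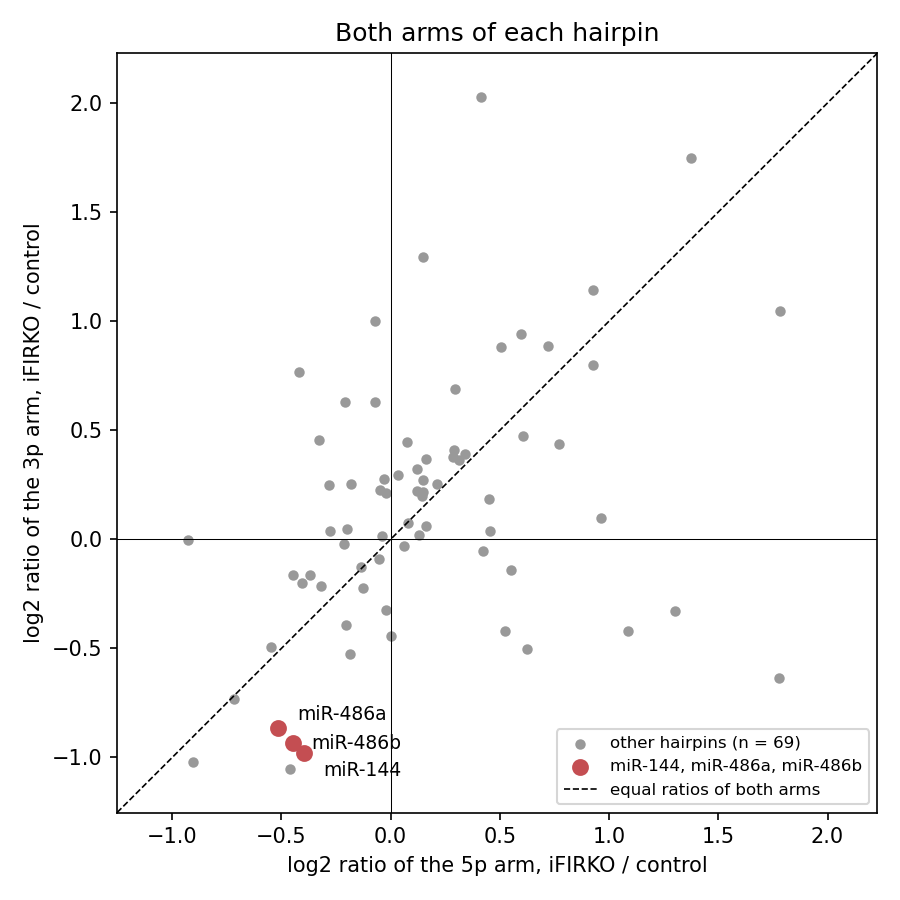
Log2 ratio of iFIRKO to control for the 3p arm against that of the 5p arm, for the 72 hairpins whose arms both averaged 100 counts or more; the dashed line marks equal ratios. miR-144, miR-486a and miR-486b (red) sit close together at the lower left and below the line, while the other 69 hairpins (grey) spread over both sides of it.

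The miR-486a and miR-486b rows could not be treated as independent measurements, because how counts were divided between such alike strands is not given in the sources used here. Of the 5p counts, miR-486a held 16.3% in the control library and 15.7% in the iFIRKO library. Of the 3p counts it held 62.0% and 63.2%. The division was thus very different between the arms and nearly the same in both libraries. Summed over the copies, the 5p strand had a ratio of 0.727 (95% interval 0.720 to 0.734) and the 3p strand 0.539 (95% interval 0.518 to 0.562), and the 5p to 3p ratio went from 15.7 to 21.1, a change of 1.35 (95% interval 1.29 to 1.41).

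With the arms of a locus summed, the loci differed in ratio between these 2 libraries by more than counting error, which is all that the intervals cover. Arms of 1 hairpin also shifted against each other, past 1.5-fold in 17 of 72 hairpins. Whether the loci as such moved apart was not tested. miR-451a was scarcer against its cluster partner, with 7.46 counts per count of both miR-144 arms in the control library and 4.92 in the iFIRKO library, a change of 0.660 (95% interval 0.610 to 0.713). The 4 miR-486 arms had 7.45 counts per miR-451a count in the control library and 13.04 in the iFIRKO library, a change of 1.75 (95% interval 1.70 to 1.81). Against both miR-144 arms the miR-486 arms went from 55.5 to 64.1, a change of 1.16 (95% interval 1.07 to 1.24). These sums mix the arms unlike. In the control and iFIRKO libraries the 5p share was 94.0% and 95.5% for miR-486 and 44.8% and 54.9% for miR-144. Compared by arms of the same side, miR-144 and miR-486 had only intervals that included 1, as listed below. Over the 28 pairs of members, the 95% counting interval of the ratio of their ratios left out 1 in 23. The other 5 pairs joined arms of the same side. These were miR-144-3p with miR-486a-3p and with miR-486b-3p, miR-144-5p with miR-486a-5p and with miR-486b-5p, and miR-486a-3p with miR-486b-3p. The remaining same-side pair, miR-486a-5p with miR-486b-5p, left out 1 at 0.956 (95% interval 0.932 to 0.981). It was nearer to 1 than miR-144-5p with miR-486a-5p, at 1.09 (95% interval 0.980 to 1.20). Which intervals include 1 thus depends on the counts, and the miR-486a and miR-486b rows are not independent. For miR-144-3p and miR-486a-3p, from different chromosomes, the ratio of ratios was 0.922 (95% interval 0.821 to 1.04).

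The scaling of the libraries sets the size of every ratio between them. Scaling to miR-148a-3p, the reference of the study's RT-PCR, divided the ratios by 1.16 (a log2 shift of 0.22), the median of ratios by 1.20 (0.27) and TMM, a trimmed mean of ratios, by 1.81 (0.85). Under each of the 3 scalings the 7 arms that were lower stayed lower and all 7 passed 1.5-fold, while miR-451b stayed higher, at 1.97, 1.91 and 1.27, and did not pass 1.5-fold with TMM. The share of all miRNAs lower past 1.5-fold rose with them, to 5.52%, 6.12% and 19.5%. Among the 118 miRNAs averaging 1000 counts or more, where 6 of 6 members then passed, it was 28.0%, 31.4% and 86.4%. With TMM, being lower past 1.5-fold therefore set the members apart from few other abundant miRNAs.

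**Figure D5:**
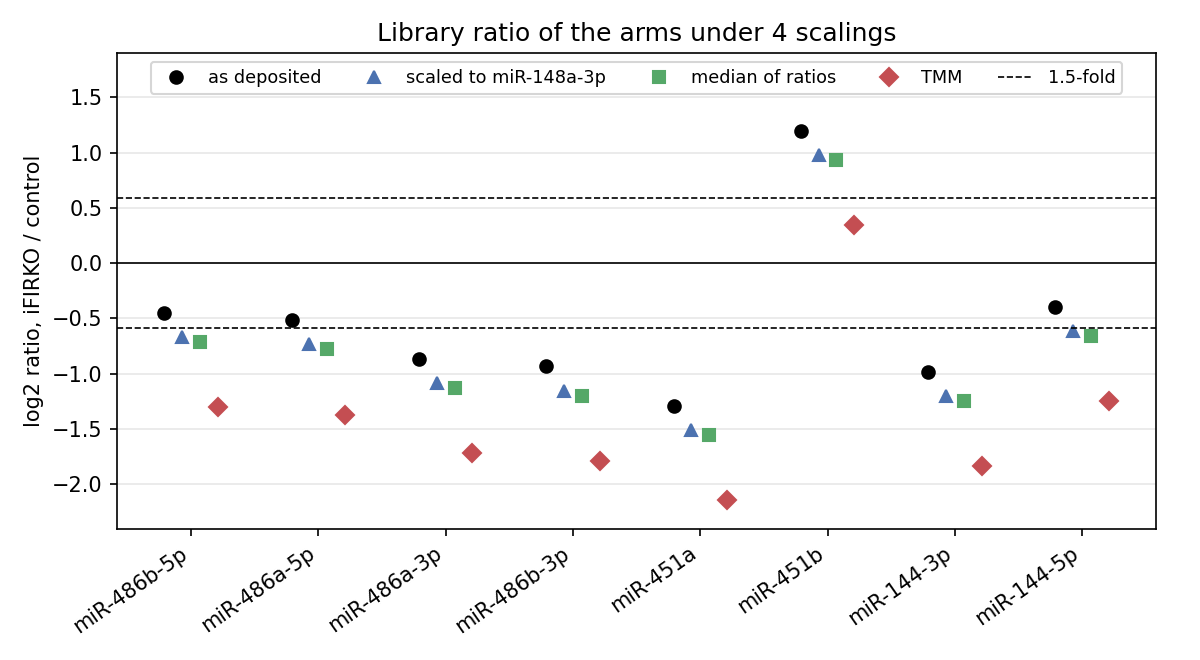
Log2 ratio of iFIRKO to control for each arm as deposited and under 3 other scalings, 1 pooled library per group; dashed lines mark 1.5-fold. Each scaling moves all arms by the same amount, down to a ratio of 0.226 for miR-451a with TMM, and no arm crosses 0.

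The ratio of miR-451a to miR-23a-3p is in common use as a measure of red cell material in serum, and no scaling enters it. It was 0.645 (95% interval 0.634 to 0.656) in the control library and 0.288 (95% interval 0.279 to 0.297) in the iFIRKO library. The change was 0.446 (95% interval 0.431 to 0.462). miR-23a-3p itself had a ratio of 0.916, miR-148a-3p of 1.16 and miR-191-5p of 1.24, so miR-451a was lower against each of these reference miRNAs. The part of red cell material in the members' levels was not tested.

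Of the 11 other miRNAs listed as held by red cells, 5 were lower and 6 higher in the iFIRKO library as deposited. Their median log2 ratio was 0.08. Over all 1847 miRNAs 220 were lower and 1627 higher, and over the 118 averaging 1000 counts or more 70 and 48. The split of the 11 depended on the scaling. When scaled to miR-148a-3p or to the median of ratios 8 of them were lower, and with TMM all 11 were lower. As deposited, 2 of the 11 were lower past 1.5-fold, against 3.03% of all miRNAs and 9.32% of those averaging 1000 counts or more. They were miR-16-2-3p at 0.557, the arm opposite miR-16-5p in its hairpin, and miR-15b-5p at 0.608, of the miR-15 and miR-16 family that restrains the cell cycle. miR-16-5p, the most abundant erythroid miRNA listed, was counted 994113 and 426219 times, a ratio of 0.733. It moved by almost the same factor as the miR-486 5p strand, whose ratio to miR-16-5p was 0.149 in the control library and 0.148 in the iFIRKO library. miR-15a-5p stood at 0.794 and miR-25-3p at 0.705. miR-92a-3p and miR-363-3p, which share the seed of miR-25, stood at 1.07 and 1.15 and the hypoxia-responsive miR-210-3p at 1.06 as deposited, but scaled to miR-148a-3p they stood at 0.918, 0.986 and 0.909, and with TMM at 0.591, 0.635 and 0.586. The miR-183 cluster stood at 1.26 for miR-183-5p, 1.21 for miR-182-5p and 1.61 for miR-96-5p, the last on 54 and 51 counts, and with TMM at 0.699, 0.672 and 0.893. Together the 11 miRNAs held 29.4% of the control library and 21.5% of the iFIRKO library, a sum set mainly by miR-16-5p.

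Markers of other cells that release EVs were present in both libraries, none was at 0, and their directions are given as deposited. They are to be read beside all 1847 miRNAs, of which 1627 were higher as deposited and 220 lower. Of the 118 averaging 1000 counts or more, 48 were higher and 70 lower. With TMM every miRNA of these 4 lists was lower, and the 4 platelet miRNAs were all lower under each of the 3 scalings. Of the 4 skeletal muscle miRNAs, a tissue that also makes miR-486, 3 were lower and 1 higher, none past 1.5-fold, and their sum went from 1.08% to 0.994% of the library. The miR-486 arms went from 6.06 to 4.78 counts per count of the muscle miRNA miR-1a-3p, a change of 0.789 (95% interval 0.772 to 0.807). Of the 4 platelet miRNAs, 3 were lower and 1 higher, with a sum of 7.46% and 6.18%, and all 5 leukocyte miRNAs were lower, with a sum of 3.39% and 3.14%, none of either list past 1.5-fold. All 4 hepatocyte miRNAs were higher, and their sum went from 12.1% to 20.2% of the library. Past 1.5-fold only miR-122-5p was higher among them, at 1.71, against 66.3% of all miRNAs and 2.54% of those averaging 1000 counts or more, and with TMM the highest ratio of the 4 was 0.944. The part of these cells in the members' ratios was not tested.

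Sequence was compared last. The only other miRNA of the RefSeq table that shared bases 2 to 7 with a matched member was mmu-miR-101a-3p, which matches miR-144-3p there but not at base 8.
mmu-miR-101a-3p: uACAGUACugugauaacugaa
It was counted 4305 times in the control library and 2480 times in the iFIRKO library. The ratio was 0.985 (95% interval 0.937 to 1.03), against 0.506 for miR-144-3p. This is 1 pair, from which nothing follows for shared seeds, and the miR-486 arms, whose sequences were not matched, were not compared. By ratio, the 5 miRNAs nearest to the median of the abundant members, among 112 others averaging 1000 counts or more, were miR-16-2-3p at 0.557, miR-126b-5p at 0.534, miR-15b-5p at 0.608, miR-126b-3p at 0.493 and miR-3074-5p at 0.653. This likeness rests on 1 ratio per miRNA from 2 libraries.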

How the data were processed

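EV RNA was isolated with a miRNeasy Micro Kit, made into libraries with a QIAseq miRNA Library Kit and, per the study's methods, analysed by the authors on the GeneGlobe Data Analysis Center. The submitters' processing notes name the build mm10, and the aligner, the miRNA annotation and the use of molecular identifiers are not given in the sources used here. The deposited values are a normalized signal per miRNA, and 100% were whole multiples of the lowest value within 0.1 count, so counts and depth were recovered from them. The listed miRNAs held 99.3% and 99.1% of the depth. With 1 library per group no count test was run. Intervals of shares and ratios were Clopper-Pearson intervals, and those of a ratio of ratios were log intervals (95%), tested on simulated data. TMM factors came from edgeR 4.0.16 (R 4.3.3), folds from ViennaRNA 2.7.2, and the rest from Python 3.11.15 with pandas 2.3.3 and scipy 1.17.1. The members and lists were chosen with earlier results of these data known. Named were the members, the listed erythroid miRNAs, miRNAs sharing a seed with a member, 3 reference miRNAs, and the 5 others with a mean count of at least 1000 nearest to the members' median ratio. Values of miR-122-5p entered only through the hepatocyte list and an alternative library total. Sequences and positions are from RefSeq, build GRCm38.p6, the reference table's own build, and 1596 of its 1679 mature miRNAs were found in the deposited tables.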

Additional observations from a re-analysis of the deposited data

How the results depend on the processing

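No paired analysis was possible because only 1 library stood for a group, and no replicate could be left out for the same reason. The scalings were miR-148a-3p, the median of ratios and TMM, in that order below, and each multiplies every miRNA by 1 factor. They raised the members lower past 1.5-fold from 4 to 7, 7 and 7, the erythroid companions past it from 2 to 4, 5 and 8, and moved the members' median log2 ratio from -0.69 to -0.91, -0.96 and -1.54 and the ratio of their summed level from 0.679 to 0.583, 0.565 and 0.376. Library totals without miR-122-5p and miR-16-5p gave a summed ratio of 0.687. A 2-fold threshold left 1 member, and a mean count of at least 100, which leaves out miR-451b, gave a median of -0.86. The change of the 5p to 3p ratio of miR-486 was 1.27 for miR-486a alone, against 1.35 for the copies summed. Hairpins past 1.5-fold in that ratio numbered 273 of 617 with arms of at least 10 counts and 0 of 10 with arms of at least 1000, against 17 of 72 at 100. With miR-148a-3p or miR-191-5p as the reference, the change of the miR-451a ratio was 0.351 or 0.329, against 0.446 with miR-23a-3p. In these alternatives no member changed direction. Of the erythroid companions, 3 that were higher became lower with each of the scalings and the other 3 that were higher became lower with TMM, among them miR-96-5p, which went from 1.61 to 0.893. The marker lists were rescaled as an alternative chosen after seeing the data, and with TMM all 4 hepatocyte miRNAs turned from higher to lower. The cause of the differences between references was not tested. Depth limits miR-451b most, at 35 and 47 counts, and counting intervals say nothing of the spread between mice.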
